A study of Arabidopsis thaliana with 6 samples.

Results

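DIN10 (AT5G20250) and SAG13 (AT2G29350) are 2 genes of dark and senescence responses. They were followed through all 6 arrays of a comparison between bundle sheath cells (BSCs) and mesophyll cells (MCs) of Arabidopsis thaliana leaves. The 2 genes were found by their AGI codes in the study's own list of genes that differed between the cell types. Each gene had 1 probe set among the 22746 Arabidopsis probe sets of the ATH1 array, of which 13482 could be named. Both genes were chosen with their difference between the cell types already known, so that difference is given as a description, without a test. Their names come from that list, and RefSeq places DIN10 on chromosome 5 and SAG13 on chromosome 2.

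All plants were of the Landsberg (Ler) ecotype and carried GFP under the scarecrow promoter (SCR:GFP). BSC protoplasts were picked by hand for their green fluorescence and MC protoplasts for lacking it and for their larger diameter, and no treatment was given. Each sample was RNA of 20 protoplasts of 1 type from enzyme-digested leaf tissue, amplified and hybridized to an array of its own, with 3 samples for BSCs (arrays 3, 5 and 7) and 3 for MCs (arrays 4, 6 and 8). Plant age is not given in the sources used here.

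DIN10 belongs to the dark-inducible genes, whose transcripts accumulate when leaves are kept in darkness or run short of sugar and which are repressed when sugar is supplied. Its protein is of the raffinose synthase and seed imbibition protein family of glycosyl hydrolases, and RefSeq also lists it as raffinose synthase 6. SAG13 is a senescence-associated gene of a short-chain alcohol dehydrogenase. Its transcript is known to accumulate early in leaf senescence and also under pathogen attack and oxidative stress, so it is not a marker of age alone.

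The values are log2(NREL), the logarithm of the normalized expression level that the authors deposited for each probe set. The arrays did not share 1 distribution of these values. BSC array 7 was compressed: only 78 of its probe sets reached a log2(NREL) of 5, compared with between 406 and 1157 on every other array. Its values had an SD of 0.60 over all probe sets, against 0.84 to 1.23 on the others. BSC array 3 and MC array 6 were the widest, with SDs of 1.23 each. Of the marker lists, bundle sheath had 0 of 4 genes with a named probe set, xylem 0 of 2, epidermis 0 of 3, phloem 1 of 5, guard cell 1 of 3 and photosynthetic mesophyll 1 of 7, so the BSC label could not be checked against its own markers. The mesophyll gene was PRK, a Calvin cycle enzyme, which had a log2(NREL) of 6.17, 4.42 and 2.43 on BSC arrays 3, 5 and 7, and of 5.71, 7.82 and 5.68 on MC arrays 4, 6 and 8. The difference of PRK, -2.06 (standard error 1.08), did not pass the test described further on, but did so after quantile normalization (-2.31), with array weights (-1.50) and without BSC array 3 (-2.98). Without BSC array 7 it was -1.11 and without MC array 6 -1.35, and neither passed. The phloem gene SWEET11, a sucrose exporter, and FMA, the guard cell regulator FAMA, differed by 0.02 (standard error 0.42) and 0.17 (0.16).

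DIN10 was bright on BSC arrays 3 and 5 and much dimmer on BSC array 7 and in MCs. Its log2(NREL) was 7.06, 6.92 and 3.68 on BSC arrays 3, 5 and 7, and 3.62, 3.27 and 3.28 on MC arrays 4, 6 and 8. The BSC and MC arrays did not overlap, but the lowest BSC array lay only 0.06 above the highest MC array, whereas BSC array 3 lay 3.78 above MC array 6. In BSCs the mean was 5.88 ± 1.91, and in MCs 3.39 ± 0.20 (SD, n = 3 each), which gives a log2 difference of 2.49 (standard error 0.93) or a fold change of 5.63. The MC arrays spanned 0.35 on the log2 scale and the BSC arrays 3.37 as deposited. In bulk samples such as these, fewer cells that hold a transcript and less of it per cell cannot be told apart.

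Few probe sets had as large a difference as DIN10: 10 of the 22746 had a larger one in absolute value. Of these only 2 were higher in BSCs, an unnamed probe set with 2.58 (standard error 1.44) and AOP3, a glucosinolate synthesis gene, with 2.50 (1.51). Both were named here after their values had been seen, and in both the BSC and MC arrays overlapped. Without BSC array 7 the mean of DIN10 in BSCs was 6.99 and the difference 3.59 (standard error 0.16). Without BSC array 3 the difference was 1.91 (0.95), and without BSC array 5 it was 1.98 (1.02).

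Most probe sets that were bright on BSC arrays 3 and 5 were much dimmer on BSC array 7, as DIN10 was. At levels chosen after the values of DIN10 had been seen, 226 probe sets reached a log2(NREL) of 6.5 on both BSC arrays 3 and 5. On BSC array 7 the median of these 226 was 3.38, and 156 of them were below 4. On MC arrays 4, 6 and 8 their medians were 6.5, 8.15 and 6.67. Only 2 of the 226 were below 4 on all 3 MC arrays, DIN10 and an unnamed probe set. DIN10 was chosen with its difference already known, so this count is a description and nothing is read from it.

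SAG13 varied little among the arrays of each cell type, with a small step between BSCs and MCs. Its log2(NREL) was 3.54, 3.65 and 3.23 on BSC arrays 3, 5 and 7, and 3.02, 2.61 and 3.01 on MC arrays 4, 6 and 8. No BSC array was as low as any MC array, with 0.21 between the closest pair and 1.04 between the farthest. BSCs had a mean of 3.47 ± 0.22 and MCs one of 2.88 ± 0.23 (SD, n = 3 each), which differ by 0.59 on the log2 scale (standard error 0.17). As a fold change this was 1.51, just inside the threshold of 1.5 that the study used. A total of 519 probe sets had a higher difference than SAG13, and 1348 had a larger one in absolute value.

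**Figure D1:**
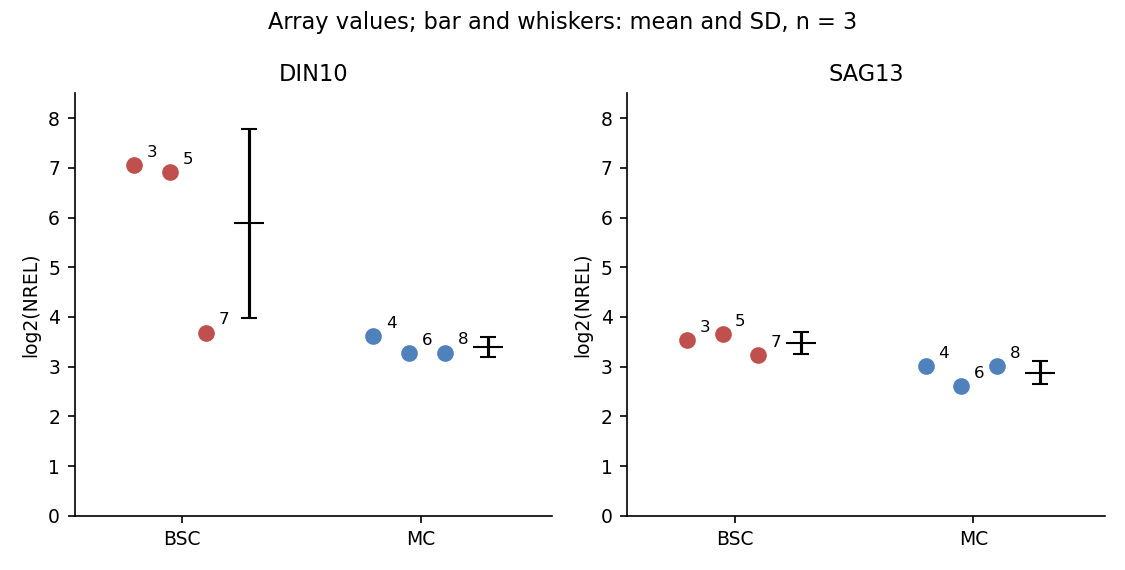
log2(NREL) of DIN10 and SAG13 (y axis) on each array, BSCs in red and MCs in blue, with the array number beside each point and the mean and SD (n = 3) as a black bar with whiskers. DIN10 on BSC array 7, at 3.68, sits beside the MC arrays, while the SAG13 arrays form 2 close groups at means of 3.47 and 2.88.

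Separation of the arrays of both cell types was not rare. Of all probe sets 3.14% had every BSC array above every MC array, as DIN10 and SAG13 did, and 0.264% also reached a fold change of 1.5. These shares are given beside the values of the 2 genes, which were chosen for this contrast, and nothing is read from them.

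Because the arrays differed in their distributions, the place of each probe set within its own array was also taken, as the percentage of all probe sets with a lower value. Such a rank does not depend on scaling between arrays, although it also reflects how well the probes hybridize. DIN10 was at the 98.5, 99.2 and 97.1 percentile on BSC arrays 3, 5 and 7, and at the 94.6, 88.2 and 92.6 percentile on MC arrays 4, 6 and 8. By rank, BSC array 7 thus stood with the other BSC arrays: 662 probe sets were brighter than DIN10 on it, against 348 and 180 on BSC arrays 3 and 5 and 1233 to 2677 on the MC arrays. A rank also depends on the other probe sets, and of the 226 bright on BSC arrays 3 and 5, 156 were below 4 on BSC array 7. Their part in the rank of DIN10 was not tested. The mean percentile of BSCs was 98.3 ± 1.08 and that of MCs 91.8 ± 3.25 (SD, n = 3 each). Percentiles near the top of the scale have little room to spread, so these SDs do not show which arrays were closer together. After quantile normalization, described below, the SD of DIN10 was 0.85 in BSCs and 0.50 in MCs.

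For SAG13 the ranks of BSCs and MCs overlapped. They were the 89.6, 93.8 and 93.9 percentile on BSC arrays 3, 5 and 7, and the 89.9, 81.3 and 89.7 percentile on MC arrays 4, 6 and 8. BSC array 3 was thus below MC arrays 4 and 8 by rank, although it was above both by value. Their means were 92.4 ± 2.44 in BSCs and 87.0 ± 4.93 in MCs (SD, n = 3 each).

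Quantile normalization, which gives every array the same distribution, widened the separation of the arrays for DIN10 and closed it for SAG13. Each such value is set by the rank within the array, so the order of the arrays repeats that of the percentiles. DIN10 then had 5.80, 6.59 and 4.89 on BSC arrays 3, 5 and 7, and 4.01, 3.02 and 3.58 on MC arrays 4, 6 and 8. The gap between the lowest BSC and the highest MC array widened to 0.88, and the difference was 2.22 (standard error 0.48). SAG13 had 3.17, 3.84 and 3.84 in BSCs, and 3.21, 2.59 and 3.18 in MCs, with the arrays in the same order. Its groups then overlapped by 0.04, with BSC array 3 below MC arrays 4 and 8, and the difference was 0.62 (standard error 0.26).

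**Figure D2:**
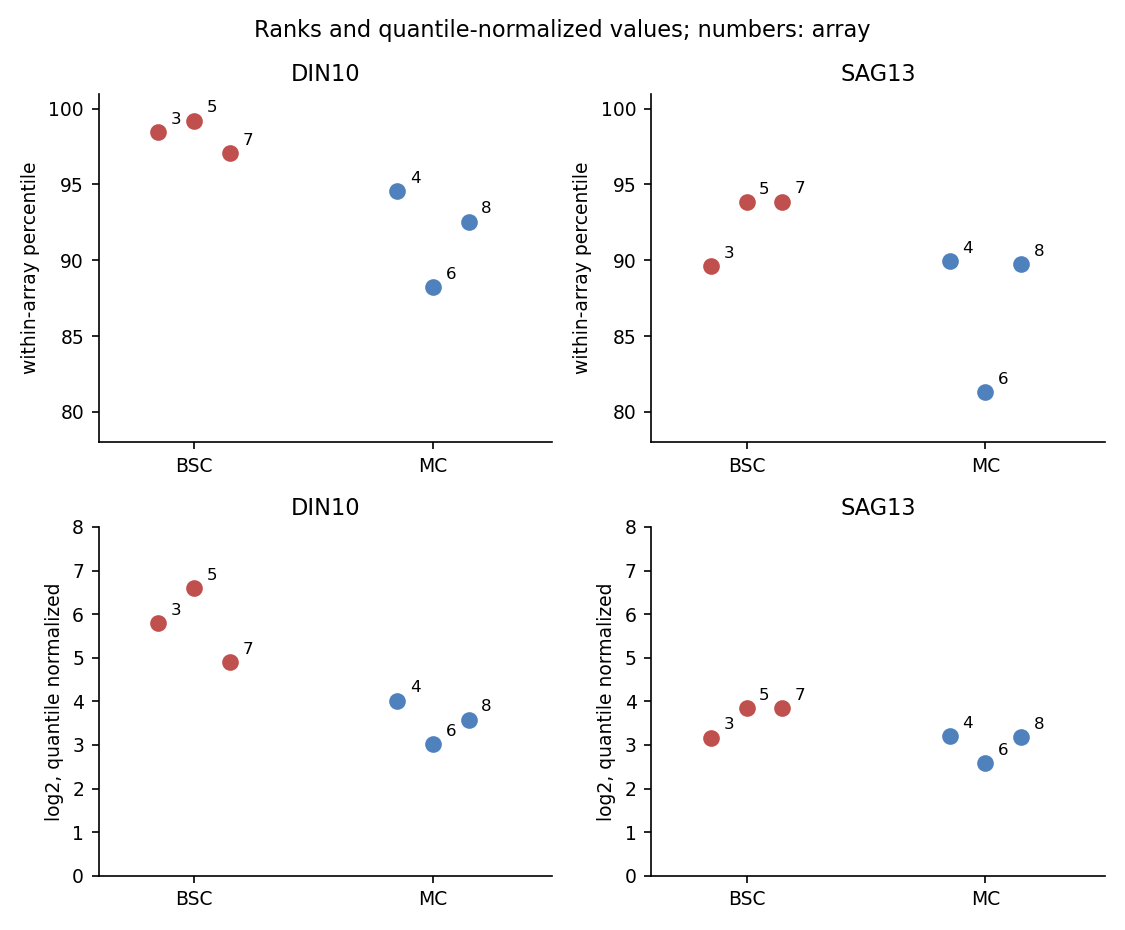
Within-array percentile among all 22746 probe sets (top row, axis does not start at 0) and log2 value after quantile normalization (bottom row) of DIN10 and SAG13, BSCs in red and MCs in blue, with array numbers. On both scales, which rest on the same ranks, every BSC array is above every MC array for DIN10. The gap is 0.88 after quantile normalization. For SAG13, BSC array 3 falls among the MC arrays.

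SAG13 lies in a row of genes for tropinone reductase-like short-chain dehydrogenases on chromosome 2, and all of those listed could be compared with it. In the order of protein-coding genes in RefSeq, AT2G29340 comes directly before it and AT2G29360 directly after. AT2G29340 had a log2(NREL) of 2.63, 2.68 and 2.65 on BSC arrays 3, 5 and 7, and of 2.62, 2.55 and 2.67 on MC arrays 4, 6 and 8, a difference of 0.04 (standard error 0.09). AT2G29360 had 1.85, 1.68 and 1.99 in BSCs, and 1.81, 1.47 and 1.72 in MCs, a difference of 0.17 (0.14). In both neighbours the BSC and MC arrays overlapped.

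Of the 12 other genes of this kind on chromosome 2, 8 had a positive difference, as had 54.1% of all probe sets, with a median of 0.04 and a range from -0.17 (AT2G29170) to 0.17 (AT2G29360). Their BSC and MC arrays overlapped in all 12, and 0 had an unadjusted p under 0.05 in limma. TRI, the tropinone reductase gene placed 2 genes before SAG13, had 0.15 (standard error 0.12). None of the 12 had a difference as large as that of SAG13, which was itself chosen for its difference, so the gap between SAG13 and its neighbours was not tested. Over the 6 arrays SAG13 spanned 1.04 on the log2 scale and the other 12 genes 0.13 to 0.86. The values of these 12 genes were low, from 1.37 to 2.68, near the array medians of 1.88 to 2.06, whereas SAG13 had 2.61 to 3.65. Whether probe sets at such low levels could show a difference like that of SAG13 was not tested. With AT1G07440 (0.27) and AT5G06060 (-0.10) on other chromosomes, 14 of 14 listed genes were measured. The signal of any of these related genes could include transcripts of another, since their probes were not examined here.

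**Figure D3:**
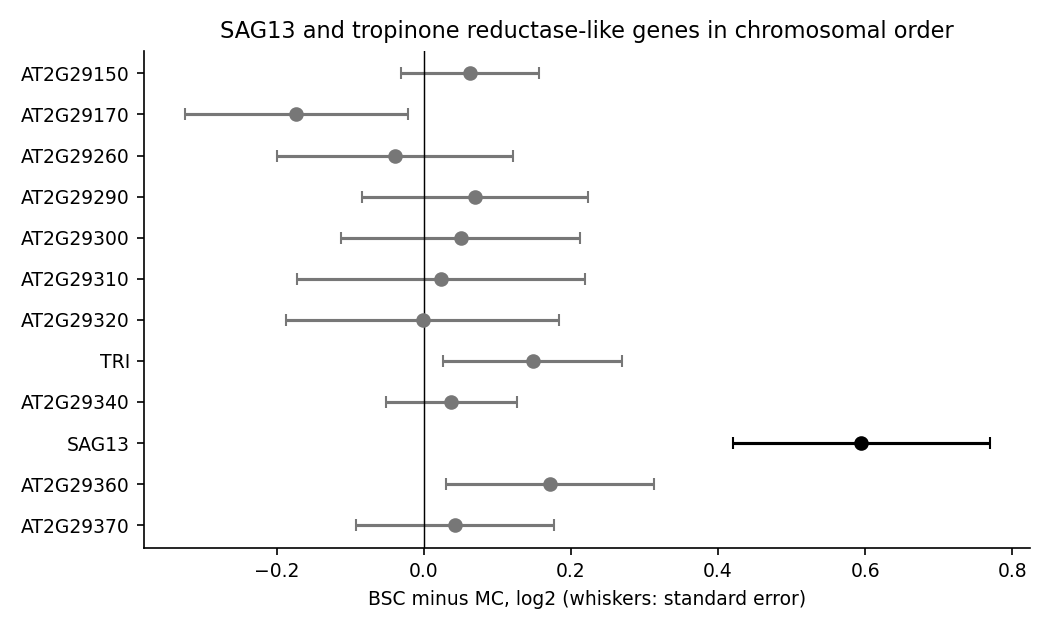
BSC minus MC difference in log2(NREL) (x axis, whiskers show the standard error from limma) for SAG13 in black and the 11 nearest tropinone reductase-like genes in grey, from top to bottom in chromosomal order. SAG13 lies at 0.59, and the others lie between -0.17 and 0.17.

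The remaining lists hold genes that work in the same responses as DIN10 and SAG13. A gene is called higher or lower in BSCs where it passed an unadjusted p under 0.05 in limma and an absolute fold change of 1.5. Over all probe sets 0.141% were called higher and 0.361% lower, with a median difference of 0.01, and the methods' t-test called 0.0484% higher and 0.132% lower at the same thresholds. The lists were short of named probe sets: 0 of the 7 other dark-inducible genes, 5 of 18 sugar starvation genes, 1 of 11 genes of raffinose family oligosaccharides, 5 of 20 senescence genes, 1 of 7 of chlorophyll breakdown, 9 of 11 of autophagy and 3 of 22 of defence and oxidative stress. The other raffinose synthase-like genes, which are the relatives of DIN10, were among those not analysed here.

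Of the 5 senescence genes, 1 was called and it was lower in BSCs. This was WRKY6, a transcription factor that promotes senescence and defence genes. Its log2(NREL) was 5.12, 3.76 and 4.32 on BSC arrays 3, 5 and 7, and 5.94, 5.85 and 5.57 on MC arrays 4, 6 and 8. All BSC values were below the MC values, as for 2.85% of all probe sets. WRKY6 averaged 4.40 ± 0.68 in BSCs and 5.79 ± 0.19 in MCs (SD, n = 3 each), with a log2 difference of -1.39 (standard error 0.35). WRKY6 is in the study's list of differing genes, so the study chose it on these samples and it is not independent evidence. In limma its adjusted p was 1.0 (0.194 to 1.0 over the alternatives), and its call was lost after quantile normalization (-0.91) and with a trended prior.

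The other 4 senescence genes did not pass. SAG101, of an acyl hydrolase that acts in leaf senescence and immunity, had a difference of -0.49 (standard error 0.44), which was -0.05 without MC array 6, -0.26 with array weights and -0.92 without MC array 4, where alone it was called lower. WRKY53, another regulator of senescence, had 0.09 (0.40). SAG29, the sugar transporter gene SWEET15, was nearly flat at 2.40, 2.52 and 2.44 on BSC arrays 3, 5 and 7 and 2.50, 2.47 and 2.45 on MC arrays 4, 6 and 8. AT2G25625, a factor of chloroplast vesiculation, had 0.10 (0.14). NOL, a chlorophyll b reductase and the named gene of chlorophyll breakdown, had 0.01 (0.28).

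Among the sugar starvation genes 4 of 5 had a positive difference, with a median of 0.32, and 0 were called. AT3G15450, a gene induced by starvation, had 5.38, 2.96 and 2.48 on BSC arrays 3, 5 and 7, and 2.59, 2.08 and 2.40 on MC arrays 4, 6 and 8, a difference of 1.25 (standard error 0.76). It was high on BSC array 3, and BSC array 7 lay within the range of the MC arrays. MCCB, a subunit of methylcrotonyl-CoA carboxylase in leucine breakdown, was also high on BSC array 3, with 4.83 against 2.26 and 2.04 on BSC arrays 5 and 7, and had 2.09, 2.76 and 2.72 in MCs. MCCA, the other subunit, had 1.97, 1.55 and 1.74 on BSC arrays 3, 5 and 7, and 1.49, 1.27 and 1.54 on MC arrays 4, 6 and 8. Its difference of 0.32 (0.15) is the median of the list. The cell types did not overlap, as for 3.14% of all probe sets, but the closest values nearly met and all were below 2. IVD, isovaleryl-CoA dehydrogenase of the same pathway, had -0.01 (0.13) and AT4G33150, of lysine breakdown, had 0.03 (0.14). The only raffinose-related gene with a named probe set was AT3G56310, of an alpha-galactosidase, with a difference of 0.78 (1.33) and 7.31, 6.01 and 2.81 in BSCs against 3.89, 6.32 and 3.59 in MCs. Its difference was -0.19 without BSC array 3, 0.42 and 0.27 without MC arrays 4 and 8, and 2.06 without BSC array 7, and it was called higher only with array weights (1.90), a fit that did not converge. As for DIN10, its lowest BSC value was on array 7, the compressed one, whose part in these differences was not tested.

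Autophagy genes, which recycle cell contents in starved and senescing leaves, were the most complete of the remaining lists. Of the 9 with a named probe set, all of the ATG8 family, 7 had a positive and 2 a negative difference, with a median of 0.14, and 0 were called. ATG8F, for example, had 6.27, 5.42 and 3.63 on BSC arrays 3, 5 and 7, and 3.96, 5.60 and 5.23 on MC arrays 4, 6 and 8, a difference of 0.17 (standard error 0.77). APG8H, the RefSeq symbol of AT3G15580, had the most negative difference, -1.21 (1.08), which was -0.34 without BSC array 7. It was called lower without BSC array 3 (-2.38) and with array weights (-1.49). Of the defence and oxidative stress genes, STZ, a zinc finger regulator of stress responses, had 0.20 (0.75), UGT73B5, a glucosyltransferase, -0.25 (0.90) and GSTU25, a glutathione transferase, -0.00 (0.12), and 0 of 3 were called. For the starvation, raffinose, chlorophyll, autophagy, tropinone reductase-like and defence lists, 0 members had an unadjusted p under 0.05, whether by limma or by the methods' t-test.

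**Figure D4:**
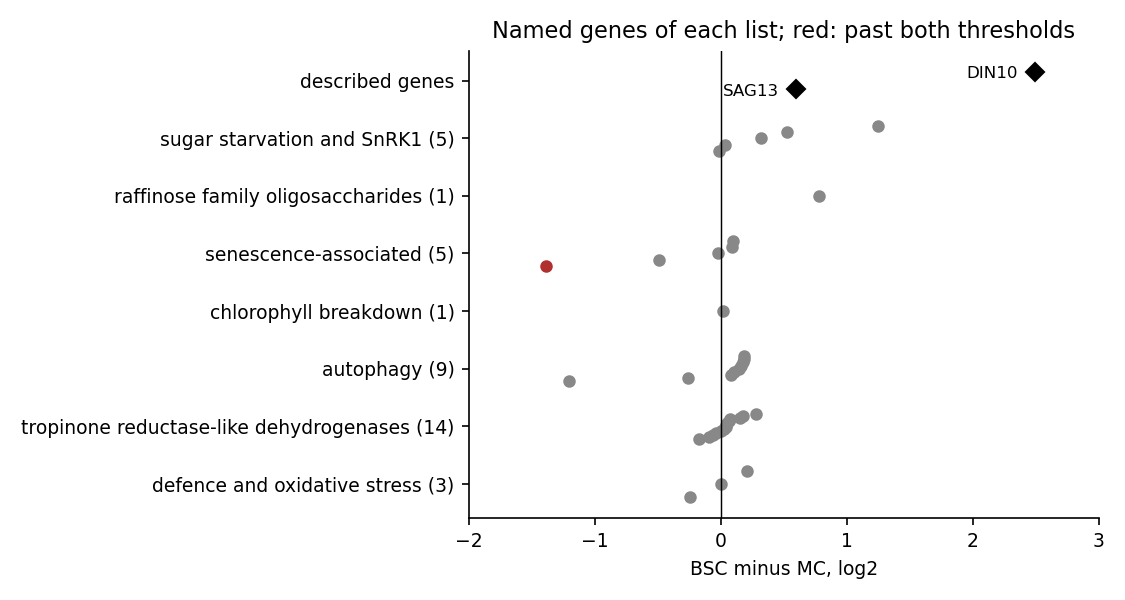
BSC minus MC difference in log2(NREL) (x axis) of each gene with a named probe set, by list with the number of genes in parentheses, WRKY6 in red as the only called gene, and DIN10 and SAG13 as black diamonds in the top row. DIN10 at 2.49 lies beyond every gene of the lists, of which AT3G15450 at 1.25 is the highest. DIN10 was chosen with its difference known, so its place here is a description.

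The genes whose values ran most like those of each gene were sought among 6294 other named probe sets whose mean reached 2, by Pearson correlation over the 6 arrays. All genes of an array share its RNA extract and its distribution of values, so these correlations describe the arrays and carry no p. For DIN10 the 5 highest were AT5G08750 (r = 0.99), AT5G62580 (0.98), AT1G07590 (0.98), AT3G56160 (0.98) and AT5G16880 (0.98). All were higher on BSC arrays 3 and 5 than on the others, but a correlation takes no account of the size of the steps. AT5G08750 had only 2.49 and 2.52 on BSC arrays 3 and 5, and 2.10 to 2.17 on the others. AT5G16880 had the steps nearest in size to those of DIN10, with 6.40, 6.21 and 2.28 on BSC arrays 3, 5 and 7, and 2.48, 3.06 and 2.31 on MC arrays 4, 6 and 8. In none of the 5 did the difference pass the call, and their Spearman correlations with DIN10 were lower, 0.49 to 0.77. For 19 probe sets r was 0.95 or more.

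For SAG13 the 5 most alike were ASPGB1 (r = 0.98), an asparaginase gene, LCV2 (0.97), AT3G03070 (0.96), AT5G63260 (0.96) and AT3G48880 (0.95). ASPGB1 and LCV2 also put the 6 arrays in the same order as SAG13, with a Spearman correlation of 1. ASPGB1 had 2.40, 2.46 and 2.28 on BSC arrays 3, 5 and 7, and 2.13, 2.05 and 2.12 on MC arrays 4, 6 and 8, which is a narrower span than that of SAG13. LCV2 had 2.90, 3.10 and 2.77 in BSCs, and 2.45, 2.17 and 2.34 in MCs. LCV2 is itself in the study's list, and of the 5 genes LCV2 and AT5G63260 were called higher in BSCs, as were 0.141% of all probe sets. The 5 were picked for following SAG13, itself higher in BSCs, so these calls are not independent evidence. The correlation between DIN10 and SAG13 was 0.88 over the 6 arrays (Spearman 0.94) and 0.93 without BSC array 7. Both genes were chosen with their higher values in BSCs known, which favours a positive correlation, so nothing is read from it. Among the other named probe sets, 79 were more like DIN10 than SAG13 was.

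**Figure D5:**
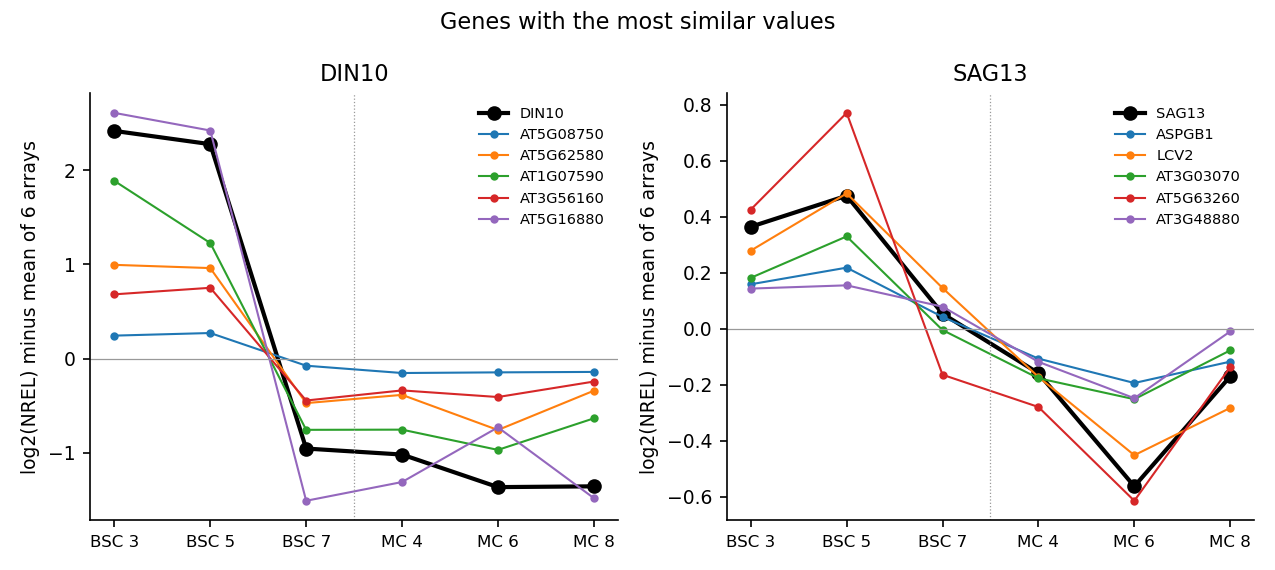
log2(NREL) minus the mean of the 6 arrays (y axis) on each array (x axis, BSCs left of the dotted line and MCs right of it) for DIN10 and SAG13 in black and the 5 genes most correlated with each in colour. The genes like DIN10 fall on BSC array 7 to about their MC levels, whereas those like SAG13 lie lowest on MC array 6.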

How the data were processed

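RNA of 20 hand-picked BSC or MC protoplasts per sample was measured on 3 Affymetrix ATH1 arrays for each cell type. The log2 values that the authors deposited came from RMA in Partek (version 6.6 per the submitters' processing notes, another per the paper) and were used as given. Scanner files were not used. The number of arrays limits the precision, and each rests on few cells and amplified RNA. Control probe sets (64) were left out. Probe sets with 1 gene in the array annotation were matched to RefSeq TAIR10.1 by gene number (13436), and 46 more were named through the study's list of differing genes. A gene with several probe sets was represented by the one with the highest mean.

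The members and lists were chosen with earlier results of these data known. Limma 3.58.1 in R 4.3.3 was fitted over 22746 probe sets with Benjamini-Hochberg adjustment, and checked on simulated data. The thresholds were those of the study. The p values set each difference against the spread between 3 samples of each cell type, which limma moderates with that of all probe sets. Named in the text are the 2 genes, every called list member and otherwise up to 4 with the smallest p, the related genes near SAG13 and the 5 most correlated genes; further list members, the marker genes, AOP3 and the unnamed probe sets were added after their values had been seen. The fold changes and p values that list holds were not used. The alternatives tried were median centring, quantile normalization, array weights, a trended prior and an ordinary t-test. A mean of at least 2 and each array left out were also tried. Protein and promoter sequences were not used here.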

Additional observations from a re-analysis of the deposited data

How the results depend on the processing

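The log2 difference of DIN10 stayed positive under all alternatives, at 1.91 to 3.59 with an array left out, 2.49 after median centring and 3.32 with array weights, a fit that stopped before it converged. That of SAG13 stayed positive as well, at 0.46 to 0.72 with an array left out and 0.65 with array weights. Without BSC array 3 or 5 or MC array 6 it was 0.56, 0.51 and 0.46, below the 0.58 of a fold change of 1.5. Ranked only among probe sets whose mean reached 2, the mean percentile of BSCs minus that of MCs was 13.0 for DIN10, in place of 6.47, and 10.9 for SAG13, in place of 5.46. Of the 5 genes most like each, 3 were among its 5 without BSC array 7, and by Spearman 0 of the 5 for DIN10 and 2 of the 5 for SAG13 had the highest value.

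Over all probe sets, 32 were called higher and 82 lower in BSCs. These counts were 599 and 286 under array weights, 72 and 184 after quantile normalization and 11 and 30 in the ordinary t-test. With an array left out they ranged from 18 to 335 and from 59 to 199: leaving out BSC array 3, 5 or 7 gave 50 and 199, 53 and 59, and 335 and 83, and leaving out MC array 4, 6 or 8 gave 18 and 113, 21 and 69, and 21 and 159. Of the senescence genes 0 were called after quantile normalization and 1 to 2 with an array left out, and of the autophagy genes 0 to 1. The cause of these changes was not tested. No paired analysis was possible because the labels give BSC and MC arrays no replicate number in common and do not say which were prepared together. The paper states that protoplasts of both types were extracted together, without naming the samples. Any preparation shared between a BSC and an MC sample is thus left out of these fits.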
